A study of Mus musculus with 21 samples.

Results

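Skeletal muscle of diabetic mice was compared between animals without the transcription factors FoxO1, FoxO3 and FoxO4 in muscle fibres (STZFoxOTKO, 6 libraries) and floxed littermates (STZFoxOTlox, 5 libraries). The libraries were chosen by their genotype and drug labels, and they are 11 of the 21 RNA-seq libraries of the study; all 12658 genes with enough counts were tested. In the knockout, Cre recombinase driven by the ACTA1 promoter removes the floxed parts of all 3 FoxO genes in muscle fibres. Immune, vascular and connective tissue cells in the same muscle keep the genes. STZFoxOTlox muscle carries the floxed alleles of FoxO1, FoxO3 and FoxO4 without the deletion. Both groups were made diabetic with streptozotocin (STZ), which kills the beta cells that make insulin, at 150 mg/kg after an overnight fast, and females received 75 mg/kg more on day 3. Only animals whose random blood glucose stayed above 300 mg/dL over the following 9 to 12 days were kept. The mice had a mixed C57Blk6, C57Blk6J and 129 background. The other 10 libraries came from the same genotypes given citrate buffer (FoxOTKO, 6, and FoxOTlox, 4). They serve here to ask whether the knockout acted differently without diabetes. They are also part of the fit, so they enter the filter on counts and the estimate of spread behind the STZ tests. RNA came from powdered quadriceps and gastrocnemius mixed together. The age and sex of each animal, and whether each library came from its own animal, are not in the labels. Xist, expressed from the inactive X chromosome of females, had at most 2 counts in each library, and the Y-linked Ddx3y at least 429 counts in each STZ library.

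FoxO proteins are transcription factors that insulin and IGF1 hold in check: the kinase AKT phosphorylates them and keeps them out of the nucleus. When insulin is lacking, as after STZ, they enter the nucleus and bind DNA at short sites with the core letters GTAAACA. In muscle they are known for turning on genes of protein breakdown by the ubiquitin proteasome system and by autophagy, inhibitors of growth signalling, and genes of fuel switching and stress resistance. The comparison asked which of these genes depend on FoxO in diabetic muscle.

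The deleted genes were examined first, because they check the labels. Expression is given as CPM, the counts of a gene scaled to a fixed library size, for the STZFoxOTlox libraries always in the order 3, 7, 14, 17 and 21 of their title numbers. Foxo4 (chromosome X, 101254528 to 101260873, GRCm38) had 5.35 to 12.7 CPM (median 6.57) in STZFoxOTKO muscle, against 201, 183, 192, 182 and 192 CPM in STZFoxOTlox muscle. Foxo1 (chromosome 3, 52268336 to 52353221) had 10.9 to 26.7 CPM (median 13.9) in STZFoxOTKO muscle, against 41.0, 49.2, 36.4, 86.2 and 71.1 CPM in STZFoxOTlox muscle. Every STZFoxOTKO library lay below every STZFoxOTlox library for both genes. Fold changes below are STZFoxOTKO over STZFoxOTlox on the log2 scale with the standard error, and adjusted p values are from edgeR's quasi-likelihood test with Benjamini-Hochberg adjustment over all genes tested, at a threshold of 0.05. Foxo4 fell (log2 fold change -4.67 ± 0.22, adjusted p = 1.84e-12) and so did Foxo1 (-1.84 ± 0.28, adjusted p = 0.000366). Foxo3 had 74.0 to 233 CPM (median 115) in STZFoxOTKO muscle, against 90.1, 80.3, 79.9, 114 and 87.0 CPM in STZFoxOTlox muscle and was not past the threshold (log2 fold change 0.59 ± 0.23, adjusted p = 0.148). Counts are per gene, so any reads from exons outside the deleted part would be included, for Foxo1 and Foxo4 as well. Reads per exon were not examined, so the Foxo3 count does not check its deletion. Foxo6, the FoxO gene that was not targeted, was low in every library (0.607 to 3.57 CPM in STZFoxOTKO and 0 to 1.94 CPM in STZFoxOTlox muscle) and was also not past the threshold (log2 fold change 1.67 ± 0.55, adjusted p = 0.0836).

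The 6 STZFoxOTKO libraries held 3586183 to 6234979 counts and the 5 STZFoxOTlox libraries 3377613 to 7676700. Library 8 was the shallowest of the knockouts. Muscle identity was clear: the summed level of 12 skeletal muscle markers was 70799 to 105746 CPM in STZFoxOTKO and 52342 to 110785 CPM in STZFoxOTlox libraries. STZFoxOTlox library 17 stood apart on the first principal component and had the lowest muscle marker sum, and STZFoxOTKO libraries 4 and 15 had the highest macrophage marker levels. For several gene lists, the counts with single libraries left out or with the run as a block are given. Lists given without them were not all steady. With 1 library left out, ion channels had 3 to 7 members past the threshold, insulin and mTOR signalling genes 6 to 10 and tendon markers 0 to 3. Mitochondrially encoded genes took 5.87 ± 1.57% of the counts in STZFoxOTKO (SD, n = 6) and 3.62 ± 0.63% in STZFoxOTlox libraries (n = 5), a difference past the threshold in a two-sided exact permutation test (p = 0.00866). Total counts did not differ past it (p = 0.628 in the same exact permutation test). The title codes form 6 runs of consecutive library codes, 4 of which hold 1 library of each STZ genotype (4 and 3, 8 and 7, 15 and 14, 18 and 17). In bulk RNA a lower level can mean fewer cells of a type or less RNA per cell, and the 2 cannot be told apart.

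In all, 619 of 12658 genes passed the threshold (4.89%): 313 were higher in STZFoxOTKO muscle (2.47%) and 306 lower (2.42%). The fold change was at least 1 on the log2 scale in 420 of them and at least 2 in 138. The libraries of the groups did not overlap at all in 136 of the 313 higher and 205 of the 306 lower genes, beside 1.51% and 2.24% of all tested genes that were separated in these directions (3.74% in either). The median of all tested genes was 0.03. Each call was also examined in 22 alternative settings, among them leaving out each of the 11 STZ libraries. The number of calls depended on single libraries: it was 380 without STZFoxOTlox library 21 and 407 without library 7, and 379 without STZFoxOTKO libraries 4 and 15 together. DESeq2 called 1011 genes, of which 617 were among the 619, and a fit with the run as a block called 1068, of which 566 were. With the 11 STZ libraries fitted alone, 312 genes were called, of which 300 were among the 619.

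FoxO-associated genes of growth control and stress were lower in diabetic knockout muscle as a group in count: 9 of 27 tested fell and 0 rose, with a median of -0.71. Pik3ip1 (chromosome 11, 3330401 to 3342971), an inhibitor of the phosphoinositide 3-kinase that insulin activates, had 9.87 to 12.4 CPM (median 11.4) in STZFoxOTKO muscle, against 82.8, 48.6, 49.5, 41.8 and 67.6 CPM in STZFoxOTlox muscle. Sesn1 (chromosome 10, 41809935 to 41908424), a sestrin that restrains mTORC1, the kinase complex that drives protein synthesis, had 31.6 to 60.4 CPM (median 40.8) in STZFoxOTKO muscle, against 129, 112, 82.2, 234 and 111 CPM in STZFoxOTlox muscle. Cited2, a transcriptional co-regulator that limits the hypoxia factor HIF1, had 30.6 to 40.2 CPM (median 35.7) in STZFoxOTKO muscle, against 75.0, 74.5, 79.1, 140.0 and 113 CPM in STZFoxOTlox muscle. For all 3 genes every STZFoxOTKO library lay below every STZFoxOTlox library, and the knockout libraries were close together for Pik3ip1 and Cited2. Pik3ip1 fell most (log2 fold change -2.38 ± 0.21, adjusted p = 1.99e-07), followed by Sesn1 (-1.66 ± 0.22, adjusted p = 7.1e-05) and Cited2 (-1.44 ± 0.18, adjusted p = 4.39e-05).

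The other members of the list that fell were Map1lc3b, described with the autophagy genes, and Cdkn1b, Klf15, Bnip3, Tnfsf10 and Eif4ebp1, whose calls were less steady: those on Klf15, a glucocorticoid-induced transcription factor (-0.99 ± 0.24, adjusted p = 0.0173, call lost in 2 of 22 alternatives), and Tnfsf10, the death ligand TRAIL (-1.23 ± 0.34, adjusted p = 0.0384, call lost in 9 of 22 alternatives), were lost in some alternatives. Cdkn1b, which encodes the cell cycle inhibitor p27, had 51.0 to 80.6 CPM (median 78.5) in STZFoxOTKO muscle, against 95.2, 134, 109, 149 and 122 CPM in STZFoxOTlox muscle (log2 fold change -0.71 ± 0.16, adjusted p = 0.0125). Bnip3, a mitochondrial receptor for autophagy, had 67.6 to 277 CPM (median 154) in STZFoxOTKO muscle, against 232, 333, 295, 795 and 270.4 CPM in STZFoxOTlox muscle (log2 fold change -1.24 ± 0.33, adjusted p = 0.0319). Eif4ebp1, a repressor of cap-dependent translation that mTORC1 inactivates, had 7.14 to 43.0 CPM (median 17.0) in STZFoxOTKO muscle, against 29.5, 45.6, 33.2, 151 and 52.0 CPM in STZFoxOTlox muscle (log2 fold change -1.55 ± 0.45, adjusted p = 0.046). Cdkn1b did not overlap between the groups, whereas Bnip3 and Eif4ebp1 overlapped and library 17 held their highest value. Cdkn1a, which encodes the related inhibitor p21, did not pass (72.8 to 328 CPM in STZFoxOTKO and 32.9 to 283 CPM in STZFoxOTlox muscle, log2 fold change 0.78 ± 0.54, adjusted p = 0.472). The call on Cdkn1b was lost in the 8 libraries of the shared runs (0.0515) and without libraries 4 and 15 together (0.051), given here as adjusted p values. That on Bnip3 was lost without library 4 (0.064), 7 (0.0509), 11 (0.0547), 12 (0.0501), 15 (0.0737) and 17 (0.136), with no filter on low counts (0.0589), with the 11 STZ libraries fitted alone (0.121), without libraries 17 and 18 together (0.0962) and without libraries 4 and 15 together (0.136), and its fold change was -0.80 without library 17. That on Eif4ebp1 was lost without library 4 (0.101), 7 (0.0589), 8 (0.0647), 12 (0.0819), 15 (0.0944), 17 (0.214) and 21 (0.0745), with no filter on low counts (0.138), with the 11 STZ libraries fitted alone (0.133), without libraries 17 and 18 together (0.0597) and without libraries 4 and 15 together (0.185), with a fold change of -0.92 without library 17. The count for the whole list ranged from 6 to 10 with 1 library left out, was 4 without libraries 4 and 15, and was 12 with the run as a block.

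**Figure D1:**
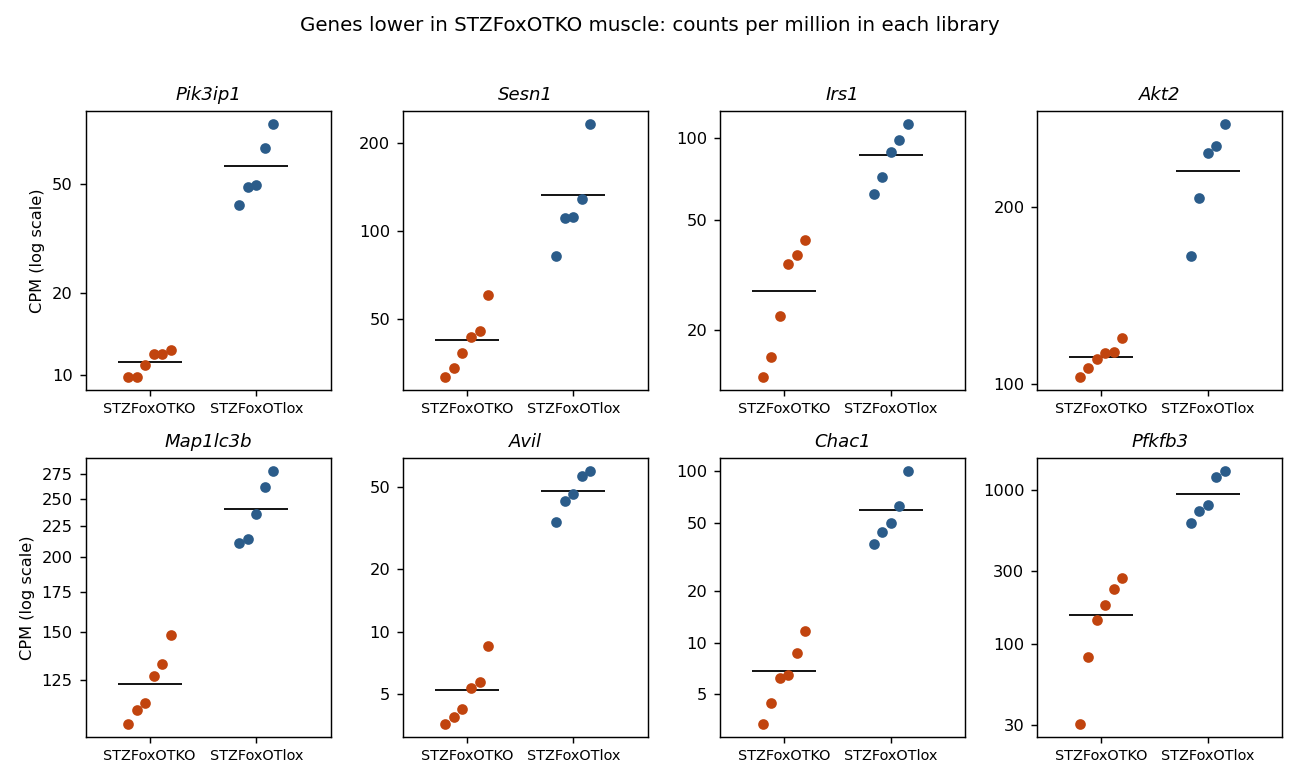
CPM (log axis) of 8 genes that were lower in diabetic knockout muscle; each point is 1 library, 6 STZFoxOTKO in orange on the left and 5 STZFoxOTlox in blue on the right, and lines are group means. For each of the 8 genes the highest STZFoxOTKO library lies below the lowest STZFoxOTlox library.

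Insulin and mTOR signalling genes changed in both directions: of 37 tested, 2 rose and 6 fell, Eif4ebp1 among them (median -0.29). Irs1 (chromosome 1, 82233101 to 82291416), which links the insulin receptor to its kinase cascade, had 13.4 to 42.2 CPM (median 28.6) in STZFoxOTKO muscle, against 62.5, 98.1, 112, 88.3 and 71.6 CPM in STZFoxOTlox muscle. Akt2 (chromosome 7, 27591552 to 27640826), the AKT kinase that mediates insulin's effect on glucose uptake and that inactivates FoxO itself, had 103 to 119.9 CPM (median 112) in STZFoxOTKO muscle, against 207, 165, 277, 246 and 254 CPM in STZFoxOTlox muscle. Tsc1, a brake on mTORC1, had 54.6 to 115 CPM (median 86.6) in STZFoxOTKO muscle, against 134, 141, 182, 285 and 180.3 CPM in STZFoxOTlox muscle. None of these 3 genes overlapped between the groups, and the Akt2 values of the knockout libraries lay within a narrow band. The fold changes were -1.64 ± 0.33, adjusted p = 0.00418 for Irs1, -1.05 ± 0.15, adjusted p = 0.000123 for Akt2 and -1.11 ± 0.23, adjusted p = 0.00551 for Tsc1. Igf1r, the IGF1 receptor, and Gsk3b, the kinase that inhibits glycogen synthase, fell as well, at -1.13 ± 0.28, adjusted p = 0.0199 and -0.94 ± 0.26, adjusted p = 0.0347. Igf1r ranged over 5.46 to 23.1 CPM in STZFoxOTKO and 24.2 to 43.1 CPM in STZFoxOTlox muscle, with no overlap. Its call was lost with the 11 STZ libraries fitted alone (0.0508) and without libraries 4 and 15 together (0.0594), and that of Gsk3b without library 4 (0.0787), 7 (0.0537), 8 (0.0571), 11 (0.0558), 15 (0.0631), 17 (0.0962) and 21 (0.077), with the 11 STZ libraries fitted alone (0.102) and without libraries 4 and 15 together (0.125).

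Grb14 and Tbc1d1 were the 2 signalling genes that rose. Grb14 (chromosome 2, 64912476 to 65024987), an adaptor that binds the insulin receptor and inhibits it, had 19.4 to 57.9 CPM (median 28.6) in STZFoxOTKO muscle, against 11.1, 7.12, 8.19, 2.36 and 5.09 CPM in STZFoxOTlox muscle (log2 fold change 2.31 ± 0.34, adjusted p = 0.000227). The lowest knockout library lay above the highest control. Tbc1d1, an AKT and AMPK substrate in glucose transporter traffic, overlapped between the groups (87.4 to 563 CPM in STZFoxOTKO and 46.0 to 88.2 CPM in STZFoxOTlox muscle, log2 fold change 1.78 ± 0.43, adjusted p = 0.0168). Its call was lost in the 8 libraries of the shared runs (0.211), with the run as a block (0.105), with no filter on low counts (0.0626), with the 11 STZ libraries fitted alone (0.0613) and without libraries 17 and 18 together (0.0884). Slc2a4, which encodes the insulin-responsive glucose transporter GLUT4, was not past the threshold (477 to 691 CPM in STZFoxOTKO and 350.5 to 498 CPM in STZFoxOTlox muscle, log2 fold change 0.46 ± 0.21, adjusted p = 0.229). Castor2, a member of the arginine sensor family upstream of mTORC1 that was not on the list, had 25.8 to 62.5 CPM (median 54.7) in STZFoxOTKO muscle, against 142, 122, 146, 99.6 and 148 CPM in STZFoxOTlox muscle. It fell without overlap (log2 fold change -1.39 ± 0.18, adjusted p = 5.44e-05).

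Genes of the autophagy machinery, which degrades cell parts in lysosomes, followed: 5 of 38 tested fell, Bnip3 among them, and 0 rose (median -0.20). Map1lc3b (chromosome 8, 121590361 to 121598760), the LC3 protein that coats the growing autophagosome, had 106 to 149 CPM (median 121) in STZFoxOTKO muscle, against 261, 278, 236, 211 and 214 CPM in STZFoxOTlox muscle. The groups were far apart for this gene, and its fold change was -0.96 ± 0.18, adjusted p = 0.00212. Calcoco1, a receptor for selective autophagy, had 39.7 to 71.4 CPM (median 57.5) in STZFoxOTKO muscle, against 108, 125, 101, 93.1 and 88.8 CPM in STZFoxOTlox muscle (log2 fold change -0.87 ± 0.16, adjusted p = 0.00255), and Atg9a, a lipid scramblase of the forming autophagosome, had 32.8 to 66.5 CPM (median 62.0) in STZFoxOTKO muscle, against 103, 105, 111, 103 and 103 CPM in STZFoxOTlox muscle (log2 fold change -0.86 ± 0.17, adjusted p = 0.00475). Neither overlapped. Wipi2, which reads the lipid signal at that membrane, fell less (-0.54 ± 0.13, adjusted p = 0.0199), and its call was lost in the 8 libraries of the shared runs (0.087), with no filter on low counts (0.12), with the 11 STZ libraries fitted alone (0.0915) and without libraries 4 and 15 together (0.0782). The autophagy list had 3 lower genes without libraries 4 and 15, 8 without library 8 and 8 with the run as a block. Lysosome genes leaned the other way: 30 of 36 had a positive fold change (median 0.24), beside 6790 of all 12658 tested genes. The mean level of the list differed by 0.44, 0.10, 0.63 and 0.22 within the shared runs. On the log2 scale and centred on each gene's mean over all libraries, it was 0.36, 0.44 and 0.38 in STZFoxOTKO libraries 4, 15 and 18. It was -0.08, 0.04 and -0.19 in libraries 8, 11 and 12, and -0.19 to 0.16 in STZFoxOTlox libraries. Libraries 4 and 15 also had the highest macrophage marker levels, whose part in this lean was not tested. The 1 lysosome gene past the threshold was lower, Gaa, the lysosomal glucosidase of glycogen (-0.91 ± 0.26, adjusted p = 0.0442), and its call was lost without library 3 (0.07), 4 (0.0954), 7 (0.0537), 8 (0.0755), 11 (0.0507), 12 (0.0691), 15 (0.0955), 17 (0.139) and 21 (0.0657), with the 11 STZ libraries fitted alone (0.128) and without libraries 4 and 15 together (0.173). With the run as a block 7 lysosome genes were higher and 2 lower, and 3 were higher and 0 lower without library 12.

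Ubiquitin ligases that mark muscle wasting did not pass the threshold: 0 of 20 tested, with a median of -0.12. Fbxo32, which encodes atrogin-1, had 266 to 2156 CPM (median 488) in STZFoxOTKO muscle, against 2312, 1825, 1064, 5602 and 1942 CPM in STZFoxOTlox muscle. Trim63, which encodes MuRF1, had 253 to 4922 CPM (median 647) in STZFoxOTKO muscle, against 2952, 1343, 865, 8028 and 1517 CPM in STZFoxOTlox muscle. Both genes were lower in the knockout library of each shared run, and both overlapped, with wide differences between libraries of each group and library 17 the highest of all. The fold change was -1.60 ± 0.51, adjusted p = 0.0742 for Fbxo32 and -1.08 ± 0.64, adjusted p = 0.39 for Trim63. Within the 4 shared runs the log2 differences were -3.12, -2.18, -1.68 and -1.38 for Fbxo32 and -3.54, -0.93, -1.18 and -0.71 for Trim63. Neither gene was called over all libraries. Fbxo32 passed the threshold in 5 of 22 alternatives: without library 18 (-2.14, adjusted p = 0.0117), without libraries 17 and 18 (adjusted p = 0.0395), with DESeq2 (adjusted p = 0.0183), with the run as a block (-1.95, adjusted p = 0.0221) and in the 8 libraries of the shared runs (-2.08, adjusted p = 0.00919). Trim63 passed in 1, without library 18 (-2.09, adjusted p = 0.0283). The list had 3 lower without library 18, 2 lower in the block fit on runs and 1 lower without libraries 17 and 18. Of 36 proteasome subunits 1 fell, Psme4, an activator cap of the proteasome, with 267 to 658 CPM (median 467) in STZFoxOTKO muscle, against 714, 754, 845, 1448 and 1125 CPM in STZFoxOTlox muscle (log2 fold change -1.11 ± 0.26, adjusted p = 0.0137). It did not overlap, and its call was lost without libraries 4 and 15 together (0.0759).

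The 15 lower genes with the smallest p, beside Pik3ip1, Sort1, Cited2 and Castor2, were led by Avil, Slc43a1, Dusp26 and Zcchc24. Avil (chromosome 10, 127000709 to 127020994), which encodes the actin-binding protein advillin, had 3.58 to 8.54 CPM (median 4.8) in STZFoxOTKO muscle, against 46.1, 42.4, 33.8, 59.6 and 56.5 CPM in STZFoxOTlox muscle (log2 fold change -3.18 ± 0.28, adjusted p = 1.85e-07). Slc43a1, a transporter of branched-chain and other large neutral amino acids, had 5.98 to 13.8 CPM (median 7.86) in STZFoxOTKO muscle, against 53.3, 30.8, 38.0, 28.2 and 48.6 CPM in STZFoxOTlox muscle (log2 fold change -2.22 ± 0.23, adjusted p = 2.75e-06). Chac1, a glutathione-degrading enzyme that amino acid stress induces, had 3.34 to 11.7 CPM (median 6.33) in STZFoxOTKO muscle, against 62.5, 37.9, 50.1, 44.4 and 101 CPM in STZFoxOTlox muscle (log2 fold change -3.10 ± 0.39, adjusted p = 5.44e-05). All 3 genes were lower in every knockout library than in any control. Dusp26, a protein phosphatase, (-2.34 ± 0.27, adjusted p = 1.51e-05), Zcchc24 (-1.53 ± 0.17, adjusted p = 1.51e-05), Ripor2, an inhibitor of the small GTPase RhoA (-1.65 ± 0.20, adjusted p = 2.41e-05), Prune1, a phosphodiesterase (-1.21 ± 0.15, adjusted p = 3.67e-05), and Lrrc2 (-2.00 ± 0.26, adjusted p = 5.44e-05) also fell without overlap. Sort1, which encodes sortilin, a sorting receptor of the glucose transporter GLUT4 vesicles, had 74.3 to 132 CPM (median 94.0) in STZFoxOTKO muscle, against 264, 309.8, 349, 253 and 368 CPM in STZFoxOTlox muscle (log2 fold change -1.63 ± 0.20, adjusted p = 3.45e-05). Tspan8, a tetraspanin of the cell surface, had 3.4 to 23.4 CPM (median 10.2) in STZFoxOTKO muscle, against 143, 96.5, 137, 186 and 140.0 CPM in STZFoxOTlox muscle (log2 fold change -3.56 ± 0.43, adjusted p = 3.67e-05). Here too the groups were far apart. The noncoding RNAs Peg13 and Plet1os completed the 15, at -1.56 ± 0.20, adjusted p = 4.39e-05 and -4.27 ± 0.49, adjusted p = 1.51e-05. Plet1os lies antisense to another gene and had at most 8.9 CPM, and since the strand setting of the counting is not given, its reads cannot be assigned to a strand.

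Among the lower genes with the largest fold change, Pfkfb3 had the highest expression. Pfkfb3 (chromosome 2, 11471433 to 11554077), which makes the activator of the glycolytic enzyme phosphofructokinase, had 30.3 to 271 CPM (median 162) in STZFoxOTKO muscle, against 807, 737, 1212, 615 and 1340.5 CPM in STZFoxOTlox muscle. Every knockout library was below every control (log2 fold change -2.59 ± 0.49, adjusted p = 0.00273), and Pfkfb3 was the 1 gene past the threshold of 31 in glycolysis and glycogen use (median 0.27). Klhl33 (-2.50 ± 0.40, adjusted p = 0.000567) also fell without overlap, whereas Dpysl5 (-3.34 ± 0.55, adjusted p = 0.000841) and Kcnab1, a potassium channel subunit (-2.56 ± 0.46, adjusted p = 0.00174), fell with overlap because library 17 was low in both, at 1.45 and 1.45 CPM.

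Single genes of lipid, amino acid and glutathione metabolism were lower as well, beside 2.42% of all tested genes that were lower. Pnpla2 (chromosome 7, 141455198 to 141460743), the lipase ATGL that starts triglyceride breakdown, had 71.9 to 205 CPM (median 106) in STZFoxOTKO muscle, against 308, 259.6, 344, 643 and 192 CPM in STZFoxOTlox muscle. The highest knockout library passed the lowest control, library 21, and the gene fell (log2 fold change -1.44 ± 0.29, adjusted p = 0.00506). Pnpla2, Slc27a1, a fatty acid transporter (-1.02 ± 0.27, adjusted p = 0.0287, call lost in 8 of 22 alternatives), Pdk2, a pyruvate dehydrogenase kinase (-0.82 ± 0.22, adjusted p = 0.0291, call lost in 6 of 22 alternatives), and Ppard were the 4 of 40 genes of fatty acid uptake and oxidation past the threshold, all lower (median of the list 0.04). Of the 40, 22 had a positive fold change. The list's count was 1 without libraries 4 and 15, and 2 higher and 7 lower with the run as a block. Pdk4, the pyruvate dehydrogenase kinase that fasting induces, had 778 to 2511 CPM (median 1754) in STZFoxOTKO muscle, against 4200.0, 3912, 2282, 3515 and 2051 CPM in STZFoxOTlox muscle and was not past the threshold (log2 fold change -0.88 ± 0.43, adjusted p = 0.265). It was with the run as a block (-1.44, adjusted p = 0.00366). Acadsb, which degrades isoleucine-derived acyl-CoA, had 56.1 to 83.4 CPM (median 77.5) in STZFoxOTKO muscle, against 104, 144, 156, 192 and 135 CPM in STZFoxOTlox muscle and was the 1 of 21 genes of branched-chain amino acid breakdown to fall (log2 fold change -1.01 ± 0.20, adjusted p = 0.00381), beside 5 lower with the run as a block. Odc1, the rate-limiting enzyme of polyamine synthesis, had 46.6 to 108 CPM (median 65.0) in STZFoxOTKO muscle, against 159, 212, 111, 266 and 185 CPM in STZFoxOTlox muscle and was the 1 of 11 polyamine genes to fall (log2 fold change -1.35 ± 0.24, adjusted p = 0.00158). Both genes were separated between the groups, Odc1 narrowly.

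Of 30 antioxidant and glutathione genes, 3 fell and 0 rose. Gstm1, a glutathione transferase, had 22.9 to 47.6 CPM (median 31.8) in STZFoxOTKO muscle, against 88.5, 181, 61.6, 68.0 and 82.5 CPM in STZFoxOTlox muscle (log2 fold change -1.57 ± 0.26, adjusted p = 0.000897). Gstm2 had 5.81 to 10.0 CPM (median 8.18) in STZFoxOTKO muscle, against 25.0, 34.6, 17.7, 20.7 and 20.8 CPM in STZFoxOTlox muscle (log2 fold change -1.58 ± 0.27, adjusted p = 0.00102). Neither overlapped. Gstm1 and Gstm2 are close paralogs, so a read that matches both could be counted for either or for neither. Gpx3, the secreted glutathione peroxidase, had 84.1 to 305 CPM (median 150.3) in STZFoxOTKO muscle, against 506, 405, 594, 254 and 359.7 CPM in STZFoxOTlox muscle (log2 fold change -1.32 ± 0.27, adjusted p = 0.00499), with overlap, and its call was lost in the 8 libraries of the shared runs (0.0789). Of 25 genes of endoplasmic reticulum and amino acid stress, Chac1 and Herpud1, a factor of protein disposal from that compartment, fell. Herpud1 had 90.6 to 126 CPM (median 103) in STZFoxOTKO muscle, against 237, 220.5, 176, 169 and 169 CPM in STZFoxOTlox muscle (log2 fold change -0.85 ± 0.17, adjusted p = 0.00506).

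The promoters of the lower genes were searched for the FoxO core letters GTAAACA on either strand, because a shared site can be read in the sequence itself. Of the 15 lower genes named above, 12 had an entry in the RefSeq promoter table (build GRCm38.p6, 250 bases before to 50 after the start), and 1 of the 12, Tspan8, held the letters. The next 3 lower genes by p with the letters upstream of the start, Kctd20, Tprgl and Mxi1, were chosen after their values were seen. Stretches end before the transcript start and are shown on the gene's own strand, 5′ to 3′, with GTAAACA or its complement TGTTTAC in capitals: Tspan8 at chr10:115817206-115817283, Kctd20 at chr17:28953029-28953155, Tprgl at chr4:154160829-154160934 and Mxi1 at chr19:53329445-53329530.
Tspan8: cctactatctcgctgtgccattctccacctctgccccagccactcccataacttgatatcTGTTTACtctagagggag
Kctd20: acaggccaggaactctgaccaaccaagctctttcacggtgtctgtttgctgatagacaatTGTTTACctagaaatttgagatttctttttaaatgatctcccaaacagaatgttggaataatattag
Tprgl: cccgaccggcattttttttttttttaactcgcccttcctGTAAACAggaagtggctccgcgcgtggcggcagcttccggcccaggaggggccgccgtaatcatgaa
Mxi1: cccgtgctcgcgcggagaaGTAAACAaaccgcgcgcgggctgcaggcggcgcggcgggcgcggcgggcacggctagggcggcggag

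In Tspan8 the letters begin 18 bases before the start and in Kctd20 127 bases before it, both on the opposite strand, and in Tprgl and Mxi1 they begin 211 and 231 bases before it on the gene's own strand. Sesn1 also holds them, 23 bases after its start. Kctd20 (-1.05 ± 0.14, adjusted p = 5.78e-05), Tprgl (-1.31 ± 0.22, adjusted p = 0.000932) and Mxi1, which antagonises the transcription factor MYC (-0.96 ± 0.16, adjusted p = 0.001), were lower in diabetic knockout muscle. The letters stood in the promoters of 26 of 232 lower genes (11.2%, exact 95% interval 7.45 to 16.0%), of 2 of 234 higher genes (0.855%, 0.104 to 3.05%) and of 299 of all 9809 tested genes with an entry (3.05%). The comparison of these shares is void, because under 80% of each set had an entry: 75.8% of the lower, 74.8% of the higher and 77.5% of all tested genes. Of all 27025 genes of the promoter table, 1095 (4.05%) held the letters. A match is a description of the sequence and no measured binding.

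Genes higher in diabetic knockout muscle had a different make-up. The smallest p belonged to Ddah1 (chromosome 3, 145758675 to 145894277), which breaks down an inhibitor of nitric oxide synthase, with 16.3 to 33.0 CPM (median 19.8) in STZFoxOTKO muscle, against 3.36, 1.94, 3.25, 1.82 and 2.78 CPM in STZFoxOTlox muscle. Mpp3, a membrane scaffold protein, had 36.1 to 65.3 CPM (median 46.8) in STZFoxOTKO muscle, against 10.9, 9.71, 7.02, 4 and 7.71 CPM in STZFoxOTlox muscle. Mb (chromosome 15, 77015487 to 77050670), the oxygen-binding protein myoglobin of muscle fibres, had 743 to 2163 CPM (median 1212) in STZFoxOTKO muscle, against 349.7, 210.4, 131, 20.9 and 183 CPM in STZFoxOTlox muscle. For all 3 genes the lowest knockout library lay above the highest control, and for Mb the controls spread widely, with library 17 the lowest. The fold changes were 3.00 ± 0.22, adjusted p = 1.52e-08 for Ddah1, 2.63 ± 0.23, adjusted p = 1.68e-07 for Mpp3 and 2.92 ± 0.45, adjusted p = 0.000386 for Mb.

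Signalling genes were among the strongest of the higher ones. Map2k6, a kinase that activates p38 MAP kinase, had 40.3 to 67.0 CPM (median 61.1) in STZFoxOTKO muscle, against 22.3, 17.8, 9.49, 6 and 15.9 CPM in STZFoxOTlox muscle (log2 fold change 2.03 ± 0.29, adjusted p = 0.000144). Prkcd, protein kinase C delta, had 31.4 to 81.6 CPM (median 57.1) in STZFoxOTKO muscle, against 16.8, 19.1, 15.3, 19.1 and 15.4 CPM in STZFoxOTlox muscle (log2 fold change 1.74 ± 0.23, adjusted p = 7.26e-05). Ptpn3, a tyrosine phosphatase, had 110.4 to 215 CPM (median 175) in STZFoxOTKO muscle, against 68.7, 72.8, 88.8, 56.7 and 57.1 CPM in STZFoxOTlox muscle (log2 fold change 1.32 ± 0.19, adjusted p = 0.000193). None of the 3 overlapped. Tfrc, the transferrin receptor that brings iron into cells, had 94.0 to 450.0 CPM (median 203) in STZFoxOTKO muscle, against 46.6, 58.0, 59.8, 75.3 and 76.8 CPM in STZFoxOTlox muscle (log2 fold change 1.84 ± 0.32, adjusted p = 0.00119), and Nmrk2, the muscle kinase of nicotinamide riboside in NAD synthesis, had 60.7 to 147 CPM (median 92.0) in STZFoxOTKO muscle, against 42.8, 43.1, 36.7, 31.8 and 18.8 CPM in STZFoxOTlox muscle (log2 fold change 1.45 ± 0.27, adjusted p = 0.00217). Both were separated, with 1 knockout library well above the rest for each. Stbd1, a glycogen-binding protein, had 79.6 to 139.8 CPM (median 111) in STZFoxOTKO muscle, against 29.3, 42.1, 41.5, 68.2 and 42.6 CPM in STZFoxOTlox muscle (log2 fold change 1.28 ± 0.23, adjusted p = 0.00171). The rest of the 15 higher genes with the smallest p were Fam19a5, Mdga1, P2ry6, Otog, Galnt17 and Sv2b, with fold changes between 1.67 (Galnt17) and 3.88 (Sv2b). Of these 6, Galnt17 alone overlapped between the groups, and Sv2b, a synaptic vesicle protein, had 47.6 CPM in library 18 and at most 18.6 CPM in the other knockout libraries.

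**Figure D2:**
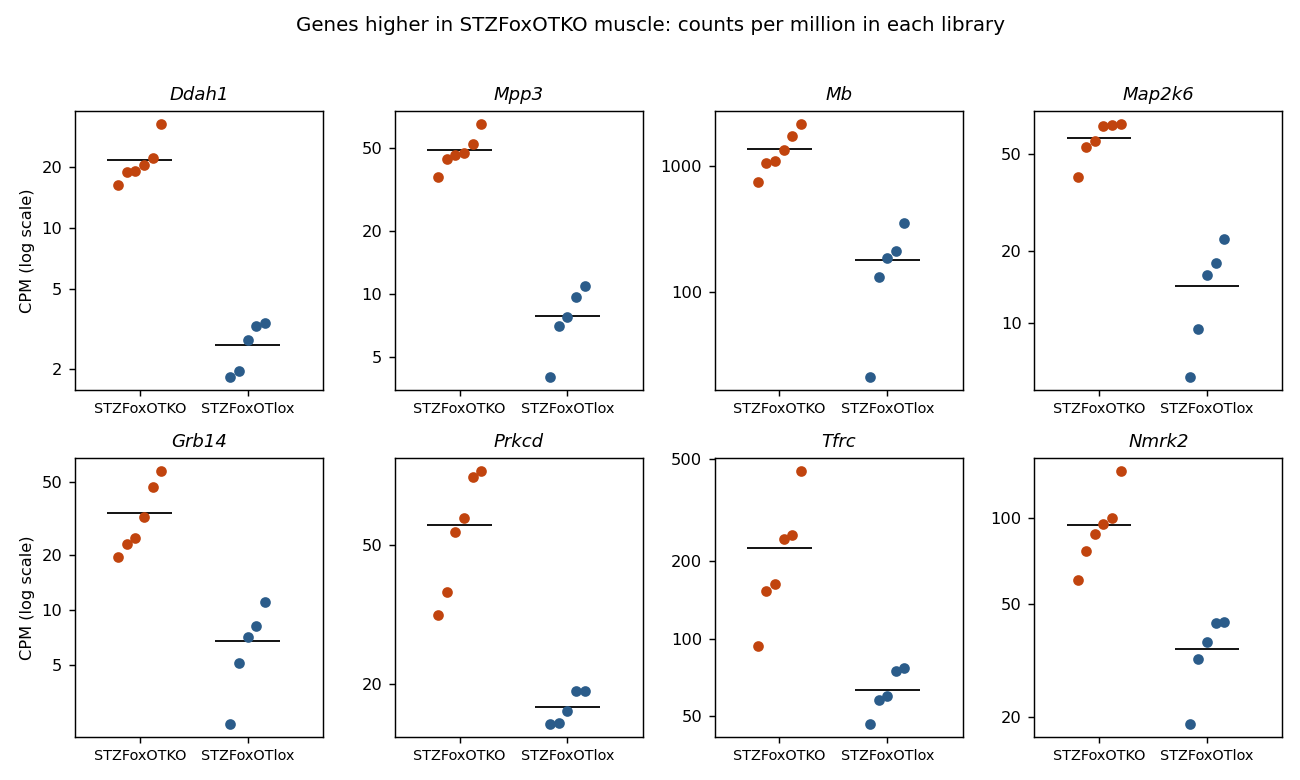
CPM (log axis) of 8 genes that were higher in diabetic knockout muscle; each point is 1 library, 6 STZFoxOTKO in orange on the left and 5 STZFoxOTlox in blue on the right, and lines are group means. For each of the 8 genes the lowest STZFoxOTKO library lies above the highest STZFoxOTlox library.

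Genes of the contractile and electrical apparatus rose in small numbers. Of 24 genes of calcium release, 2 rose, of 26 ion channels 4 rose and 2 fell, of 15 slow fibre genes 1 rose, and of 15 fast fibre genes 1 rose and 1 fell. Casq1 is counted in both the calcium release and the fast fibre list. Over all tested genes 2.47% rose and 2.42% fell, so 1 or 2 calls in so short a list say little about the list. The medians of these lists were 0.14, 0.18, 0.50 and 0.12. Besides Casq1 of the calcium store, the higher genes were Camk2b, a calmodulin-dependent kinase (0.97 ± 0.26, adjusted p = 0.0331, call lost in 9 of 22 alternatives), Mybpc1, the slow myosin-binding protein C (0.88 ± 0.21, adjusted p = 0.0138, call lost in 3 of 22 alternatives), the sodium channel subunit gene Scn3b (1.26 ± 0.32, adjusted p = 0.0213, call lost in 4 of 22 alternatives), the calcium channel subunit gene Cacna2d4 (1.65 ± 0.45, adjusted p = 0.0347, call lost in 9 of 22 alternatives), and the potassium channel genes Kcnc1 (1.01 ± 0.26, adjusted p = 0.023, call lost in 5 of 22 alternatives) and Kcnq5 (1.20 ± 0.29, adjusted p = 0.0162, call lost in 1 of 22 alternatives). Casq1, the calcium store protein of the fast fibre, had 2357 to 5325 CPM (median 3945) in STZFoxOTKO muscle, against 2240.1, 1881, 1520.2, 372 and 1862 CPM in STZFoxOTlox muscle (log2 fold change 1.31 ± 0.34, adjusted p = 0.0236), without overlap, and library 17 was the lowest. Its call was lost without library 14 (0.0539), in the 8 libraries of the shared runs (0.14) and with the 11 STZ libraries fitted alone (0.0819). Kcnc4, a voltage-gated potassium channel, fell without overlap (48.9 to 69.1 CPM in STZFoxOTKO and 103 to 177 CPM in STZFoxOTlox muscle, log2 fold change -1.34 ± 0.23, adjusted p = 0.000926). Mylk2, the myosin light chain kinase of skeletal muscle, fell too (419 to 728 CPM in STZFoxOTKO and 815 to 1301 CPM in STZFoxOTlox muscle, log2 fold change -0.98 ± 0.25, adjusted p = 0.0214). Its call was lost without library 7 (0.0551) and 21 (0.0554) and without libraries 4 and 15 together (0.107). Of 24 genes linked to denervation, 1 rose, Dok7 of the neuromuscular junction (0.98 ± 0.23, adjusted p = 0.0129), and 1 fell, Ctxn3 (-1.96 ± 0.41, adjusted p = 0.0066), while the median was 0.62. The call on Dok7 was lost in the 8 libraries of the shared runs (0.0821) and without libraries 17 and 18 together (0.0719).

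Respiratory chain genes leaned higher without passing the test. All 37 genes of complex I had a positive fold change, with a median of 0.44 and 0 past the threshold. Complexes III to V had a median of 0.57 with 1 of 37 higher, the ATP synthase subunit gene Atp5l (0.78 ± 0.22, adjusted p = 0.0456, call lost in 13 of 22 alternatives), and 12 mitochondrially encoded genes a median of 0.63 with 0. The closest mitochondrially encoded gene was mt-Nd3, a subunit of complex I (862 to 1876 CPM in STZFoxOTKO and 22.8 to 638 CPM in STZFoxOTlox muscle, log2 fold change 1.79 ± 0.55, adjusted p = 0.0643). Complex I had 3 higher without libraries 4 and 15, 2 without library 4 and 1 without library 3, 18 or 21. Complexes III to V had 3 higher without libraries 4 and 15 and without library 3, and 0 without library 7, 8, 11, 12, 14, 17 or 21, as also in the block fit on runs. The lists moved together with single libraries: the median of complex I was 0.05 to 0.64 with 1 library left out, the lowest without library 8. Within the shared runs, the mean level of complex I differed by -0.89, 1.25, 0.29 and 0.53, so the run of libraries 4 and 3 went the other way. The share of mitochondrially encoded counts was higher in the knockouts, also in library 4 (4.12%) than in library 3 (3.42%). Its part in these lists was not tested. In the citric acid cycle, Pdhb and Idh3a rose and Idh2 fell, of 26 tested. Pdhb, a subunit of pyruvate dehydrogenase (0.69 ± 0.19, adjusted p = 0.0393, call lost in 13 of 22 alternatives), and Idh3a, of the NAD-linked isocitrate dehydrogenase (0.83 ± 0.24, adjusted p = 0.0477, call lost in 14 of 22 alternatives), lost their calls with the run as a block among other alternatives. Idh2 encodes the NADP-linked mitochondrial enzyme (-0.99 ± 0.25, adjusted p = 0.0215, call lost in 4 of 22 alternatives).

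Macrophage genes stood out among the cell type markers. Of 19 macrophage markers tested, 9 rose and 0 fell, with a median of 1.73, and of 12 genes of remodelling macrophages, which clear debris and take up lipid, 8 rose and 0 fell, with a median of 3.92. The levels differed widely between knockout libraries. The mean level of the macrophage markers, on the log2 scale and centred on each gene's mean over all libraries, was 1.98, 0.80, -0.45, -0.54, 1.86 and 0.49 in STZFoxOTKO libraries 4, 8, 11, 12, 15 and 18, against -0.59, -0.95, -0.67, -0.79 and -1.12 in STZFoxOTlox libraries. Libraries 4 and 15 were the highest, library 12 lay close to the highest control, and every knockout library was above every control. Their summed expression was 325 to 2648 CPM in STZFoxOTKO and 226 to 343 CPM in STZFoxOTlox libraries. The remodelling genes ran from -0.54 to 3.14 in STZFoxOTKO and from -1.50 to -1.10 in STZFoxOTlox libraries. Both lists also leaned higher without STZ, in FoxOTKO over FoxOTlox muscle. There the macrophage markers had a median of 2.13 with 2 higher past the threshold, and the remodelling genes 3.65 with 0.

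Single macrophage genes also spread widely over the knockout libraries. Lyz2, lysozyme of macrophages, had 144 to 1593 CPM (median 514) in STZFoxOTKO muscle, against 104, 78.3, 143, 135 and 82.7 CPM in STZFoxOTlox muscle (log2 fold change 2.59 ± 0.56, adjusted p = 0.00797). Spp1, which encodes osteopontin, had 12.1 to 769 CPM (median 234) in STZFoxOTKO muscle, against 1.75, 8.42, 5.46, 12.2 and 2.31 CPM in STZFoxOTlox muscle (log2 fold change 5.79 ± 1.20, adjusted p = 0.00657). Mmp12, the macrophage elastase, had 2.73 to 116 CPM (median 13.3) in STZFoxOTKO muscle, against 0.292, 0, 0.13, 0.545 and 0.154 CPM in STZFoxOTlox muscle (log2 fold change 7.26 ± 1.53, adjusted p = 0.00693); its fold change rests on near-absent counts in the controls and depends on the prior count. Of the macrophage markers, Mpeg1, Ctss, Cd84, Tyrobp, Cd14, Itgam, Fcer1g and C1qc also rose, and of the remodelling genes Itgax, Atp6v0d2, Trem2, Gpnmb and Lgals3. Of the 22 alternatives, the calls were lost in 10 for Itgam and Gpnmb, in 9 for Tyrobp, Cd14 and Fcer1g, in 5 for C1qc, in 2 for Mpeg1 and in 1 for Ctss, Cd84, Itgax, Trem2 and Lgals3, and in 3 of 20 for Atp6v0d2. Their fold changes ran from 1.65 for C1qc to 4.30 for Trem2, and those of Itgax (6.09) and Atp6v0d2 (6.85), with at most 0.91 and 0.182 CPM in STZFoxOTlox libraries, depend on the prior count. For Lyz2, Spp1 and Mmp12, library 15 held the highest value, and of these only Spp1 overlapped. Ctsk, the protease cathepsin K, had 7.52 to 364 CPM (median 69.1) in STZFoxOTKO muscle, against 6.86, 4.21, 7.8, 4.73 and 4.16 CPM in STZFoxOTlox muscle (log2 fold change 4.52 ± 0.92, adjusted p = 0.00579), with a small overlap. Acp5, a phosphatase of macrophages and osteoclasts that was among the higher genes with the largest fold change, had 1.2 to 149 CPM in STZFoxOTKO and 0.727 to 6.11 CPM in STZFoxOTlox muscle (log2 fold change 4.21 ± 1.04, adjusted p = 0.0214, call lost in 8 of 22 alternatives). Without libraries 4 and 15 the macrophage markers had 0 higher and 0 lower past the threshold and a median of 1.00, and the remodelling genes 3 higher and 0 lower and 2.55. The macrophage markers had 15 past the threshold with the run as a block, 4 without library 21 and 5 without library 4, 7, 14 or 15. They had at most 13 with 1 library left out. Spp1, Mmp12 and Ctsk kept their calls in all 22 alternatives, and Lyz2 lost its own without libraries 4 and 15 (adjusted p = 0.075, fold change 1.63).

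**Figure D3:**
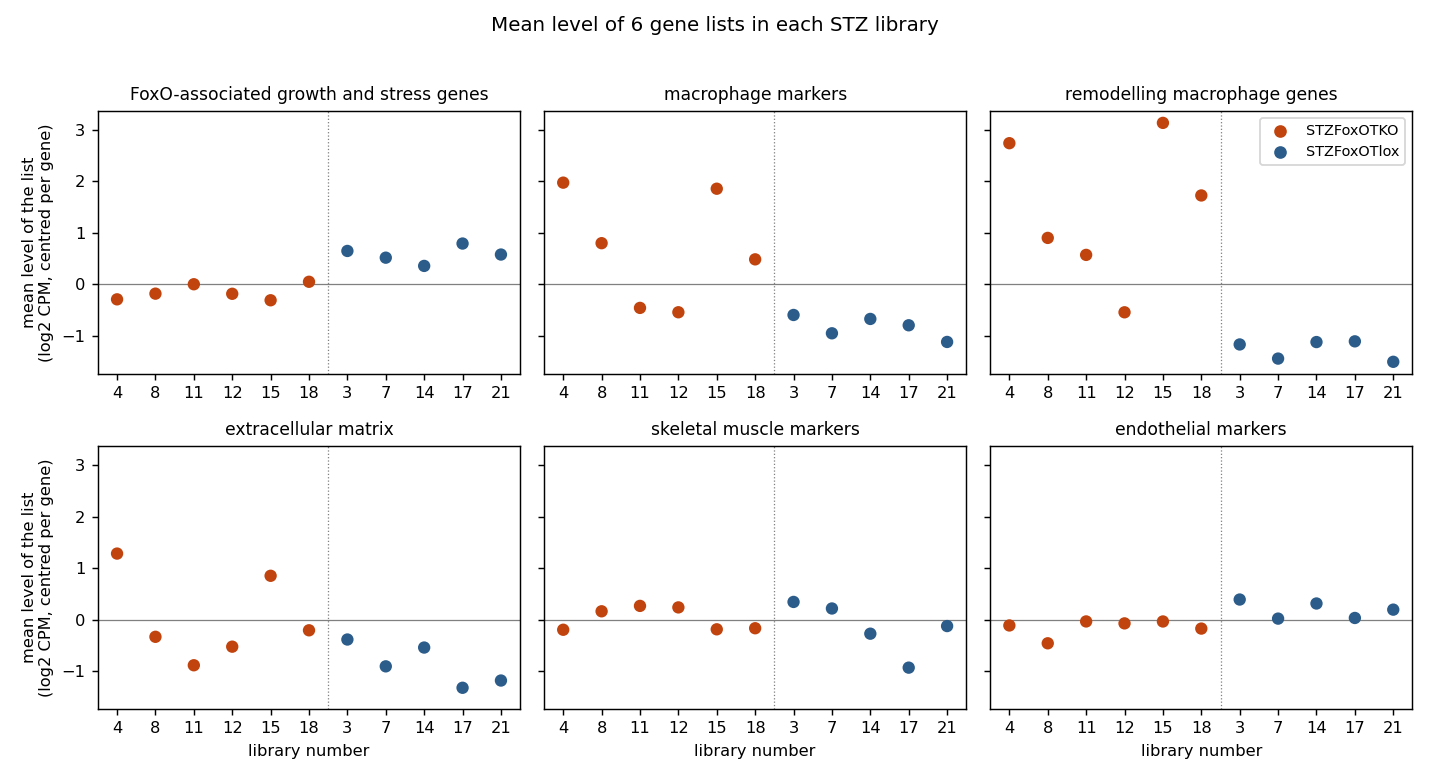
Mean level of 6 gene lists in each STZ library (log2 CPM, centred on each gene's mean over all 21 libraries), with the 6 STZFoxOTKO libraries left of the dotted line and the 5 STZFoxOTlox libraries right of it, numbered by their titles. The FoxO-associated genes are lower in all 6 STZFoxOTKO libraries, macrophage lists are highest in libraries 4 and 15, and extracellular matrix genes are above every control in libraries 4, 8, 15 and 18.

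Matrix genes followed the macrophage markers across libraries. Of 36 extracellular matrix genes 4 rose and 0 fell, with a median of 1.12; without libraries 4 and 15 it was 0 with a median of 0.30. The count was 1 without library 4, 7, 15 or 21 and 16 with the run as a block. Mmp2, a gelatinase, had 60.5 to 151 CPM (median 103) in STZFoxOTKO muscle, against 56.3, 41.8, 58.1, 34.4 and 33.6 CPM in STZFoxOTlox muscle (log2 fold change 1.23 ± 0.28, adjusted p = 0.0102), and Col3a1, the collagen of loose connective tissue, had 99.3 to 1982 CPM (median 340.1) in STZFoxOTKO muscle, against 186, 56.0, 160.2, 36.2 and 85.4 CPM in STZFoxOTlox muscle (log2 fold change 2.72 ± 0.71, adjusted p = 0.0267). Mmp2 was separated and Col3a1 overlapped. The other members that rose were Col5a2 (1.91 ± 0.49, adjusted p = 0.0245, call lost in 9 of 22 alternatives) and Fn1, fibronectin (2.15 ± 0.59, adjusted p = 0.035, call lost in 10 of 22 alternatives). The call on Mmp2 was lost without libraries 4 and 15 together (0.0855). That on Col3a1 was lost without library 4 (0.0755), 7 (0.0701), 15 (0.0577), 17 (0.0644) and 21 (0.0719), with no filter on low counts (0.102), with the 11 STZ libraries fitted alone (0.065), without libraries 17 and 18 together (0.0609) and without libraries 4 and 15 together (0.273). Fibroblast markers did not follow, with 0 of 15 past the threshold and a median of 0.06, and tendon markers had 0 of 12 and 0.47. The macrophage marker sums given above moved with the matrix genes, and their part in this result was not tested.

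Other cell types gave few calls. Endothelial markers had 0 of 17 past the threshold (median -0.36), but 16 of the 17 had a negative fold change, beside 5868 of all 12658 tested genes. Their mean level, centred as above, was -0.46 to -0.04 in STZFoxOTKO and 0.02 to 0.39 in STZFoxOTlox libraries, without overlap. Pericyte and smooth muscle markers had 1 of 13, Myh11, lower (-0.90 ± 0.22, adjusted p = 0.0183, lost without library 7 (0.0631) and in the 8 libraries of the shared runs (0.107)), and nerve and Schwann cell markers 0 of 9 (median -0.52). Adipocyte markers had 1 of 12, lower, with a median of -0.93: Adrb3, the beta-3 adrenergic receptor (-2.47 ± 0.71, adjusted p = 0.0447, call lost in 10 of 19 alternatives). Lymphocyte markers had 4 tested members and blood cell markers 6, with 0 past the threshold in each, and of 6 neutrophil and mast cell markers 1, Mmp9, rose (4.76 ± 1.31, adjusted p = 0.0369), while the other 5 had negative fold changes and the median was -0.54. Mmp9 reached 405 CPM in library 18 and had 4.09, 5.18, 3.64, 2.18 and 2.93 CPM in the controls, and its call was lost without library 3 (0.0728), 7 (0.0705), 14 (0.077), 15 (0.0658), 17 (0.0818), 18 (0.101) and 21 (0.0895), in the 8 libraries of the shared runs (0.185), with no filter on low counts (0.13), with the 11 STZ libraries fitted alone (0.0803), without libraries 17 and 18 together (0.196) and without libraries 4 and 15 together (0.0677). The markers of epidermis, bone marrow and neighbouring tissue had 2 tested members and 0 calls.

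Lists with few or no calls completed the picture. With 0 past the threshold were cytosolic ribosomal proteins (77 tested, median 0.02), interferon response genes (27, -0.27), antigen presentation (20, -0.11), immediate early genes (22, 0.01) and satellite cell and regeneration genes (15, 0.53). In the last of these, Mymk, the fusion protein myomaker of forming muscle cells, had 0.511 to 18.5 CPM (median 1.91) in STZFoxOTKO muscle and no counts in the 5 STZFoxOTlox libraries (adjusted p = 0.0635). The groups were separated for Mymk at these low levels without a call, and it passed in 3 of 20 alternatives. Without libraries 4 and 15, interferon response genes had 0 higher and 5 lower and antigen presentation 2 lower. Immediate early genes had 4 higher without libraries 17 and 18. Glucocorticoid-induced genes had 4 of 18 lower (median -0.07), namely the deleted Foxo1, Sesn1, Klf15 and Cebpd, and 2 lower without libraries 4 and 15. Amino acid transporters had 1 higher and 1 lower of 25, Slc38a10 (0.84 ± 0.18, adjusted p = 0.00672, call lost in 2 of 22 alternatives) and Slc43a1. Heat shock proteins had 1 higher and 1 lower of 23, the small heat shock protein gene Hspb3 (1.12 ± 0.28, adjusted p = 0.0213, call lost in 5 of 22 alternatives) and the heat shock factor Hsf1 (-0.73 ± 0.18, adjusted p = 0.0168, call lost in 1 of 22 alternatives). In myostatin, activin and BMP signalling 1 rose and 1 fell of 28, the signal transducer Smad3 (1.60 ± 0.31, adjusted p = 0.00365, call lost in 1 of 22 alternatives) and the activin receptor Acvr2a (-0.82 ± 0.24, adjusted p = 0.0478, call lost in 12 of 22 alternatives). Regulators of oxidative metabolism had 2 of 25 lower, the nuclear receptor Ppard (-0.62 ± 0.18, adjusted p = 0.04, call lost in 11 of 22 alternatives) and the AMPK catalytic subunit Prkaa2 (-1.16 ± 0.33, adjusted p = 0.0449, call lost in 12 of 22 alternatives). Of 18 proliferation genes 1 rose, the mitotic kinase Aurka (1.49 ± 0.32, adjusted p = 0.00683, call lost in 1 of 22 alternatives), with a median of 0.77 over the list, and 6 were higher with the run as a block. Cebpd, a transcription factor of the acute phase, had -1.34 ± 0.37, adjusted p = 0.0381, call lost in 11 of 22 alternatives. Skeletal muscle markers had 1 of 12 past the threshold, Mb, with a median of -0.09.

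**Figure D4:**
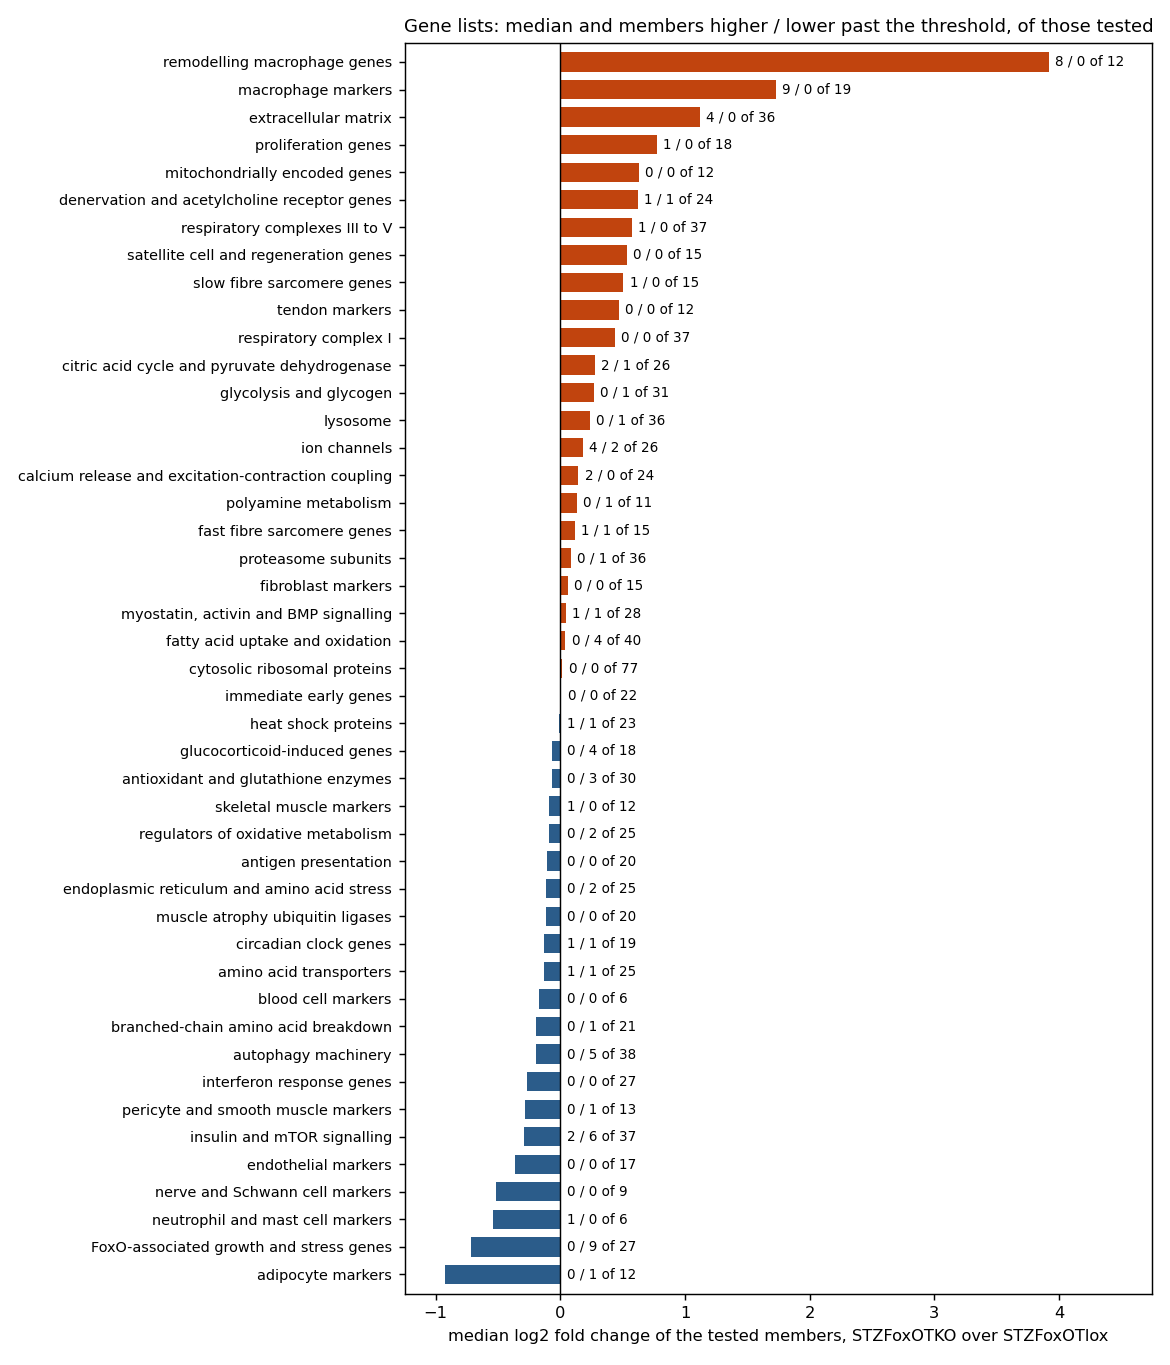
Median log2 fold change (STZFoxOTKO over STZFoxOTlox) of the tested members of 45 gene lists with at least 5 tested members, orange above 0 and blue below; the text at each bar gives members higher / lower past the threshold, of those tested. Remodelling macrophage genes have the highest median and adipocyte markers the lowest, while the FoxO-associated genes have the most lower calls, 9 of 27.

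The same knockout without diabetes (6 FoxOTKO against 4 FoxOTlox libraries, which share no library with the STZ groups) gave far fewer calls: 65 of 12658 genes (0.514%), 19 higher (0.15%) and 46 lower (0.363%). Of these, 58 were called under STZ too, all in the same direction, 15 higher and 43 lower; they are 89.2% of the list without STZ and 9.37% of the list under STZ. Of the 619 genes called under STZ, 584 (94.3%) had the same sign without it, against 67.3% of all genes. The medians of the called genes were smaller without STZ: 0.75 for the 313 higher genes, against 1.58 under STZ, and -0.63 for the 306 lower genes, against -1.07. The genes were chosen by their change under STZ, which by itself makes their values there larger. The 65 calls without STZ numbered 32 to 105 with 1 library left out. FoxOTKO library 20 stood apart in its group. Its mean level was -0.87 for skeletal muscle markers and 2.14 for satellite cell and regeneration genes (group medians 0.02 and 0.07). Fewer calls do not by themselves show a smaller effect. Several of the strongest lower genes were also called without STZ, where the fold change was -2.34 ± 0.22, adjusted p = 1.75e-06 for Pik3ip1, -2.09 ± 0.24, adjusted p = 4.3e-05 for Slc43a1, -3.71 ± 0.45, adjusted p = 0.000107 for Tspan8 and -2.77 ± 0.42, adjusted p = 0.00143 for Chac1.

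**Figure D5:**
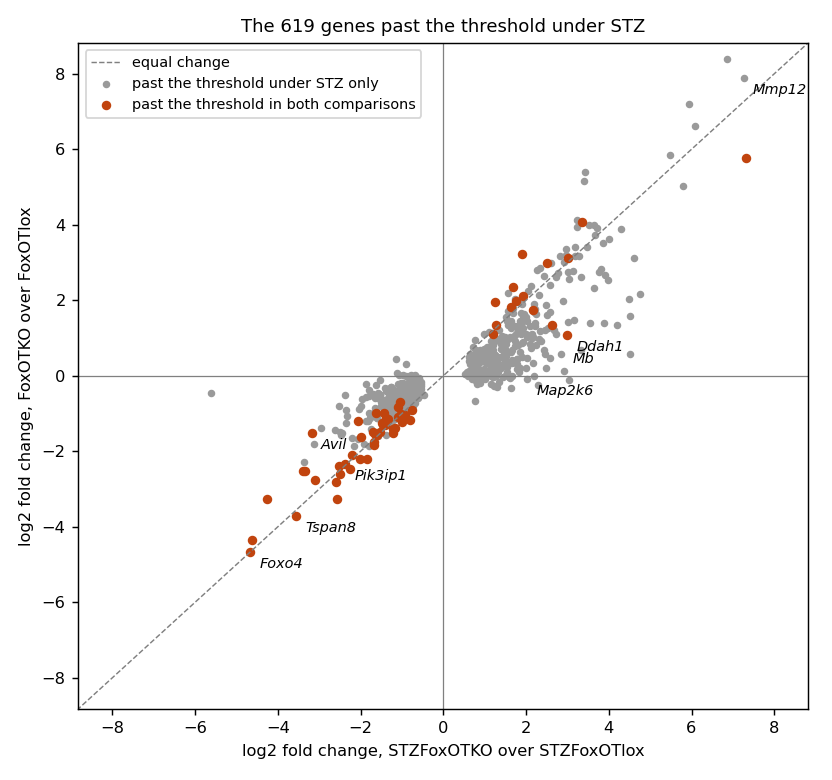
Log2 fold changes of the 619 genes past the threshold under STZ, with STZFoxOTKO over STZFoxOTlox on the x axis and FoxOTKO over FoxOTlox on the y axis; orange points passed in both comparisons (58 genes), grey points under STZ only, and the dashed line marks equal change. Most points share their sign, and Ddah1, Mb and Map2k6 lie well below the line.

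A test of the difference between both knockout effects, in the same fit, asked which genes the knockout changed more or less in diabetic muscle. It called 1 gene, Ddah1 (0.0079% of 12658), and 493 genes had an unadjusted p under 0.05; DESeq2 called 4. Ddah1 had 22.2 ± 2.97 CPM in FoxOTKO muscle (SD, n = 6) and 10.6 ± 1.97 CPM in FoxOTlox muscle (n = 4). It was higher in the knockout than in the control in both states, by 3.00 under STZ and by 1.07 without it (adjusted p = 0.0169). Its STZFoxOTKO values lay on both sides of the FoxOTKO mean, whereas its STZFoxOTlox values all lay below the FoxOTlox mean. The difference between the effects was 1.92 ± 0.30, adjusted p = 0.0179. This call was lost without library 5 (0.0866), 7 (0.0586), 10 (0.0501), 17 (0.0523), 19 (0.0815) and 21 (0.0654) and with the run as a block (0.191). The next genes by p did not pass. Mb had 1235 ± 363 CPM in FoxOTKO muscle (SD, n = 6) and 1122 ± 195 CPM in FoxOTlox muscle (n = 4), so the groups overlapped there, and the difference between the effects was 2.78 ± 0.60, adjusted p = 0.48. Map2k6 had 62.8 ± 19.6 CPM in FoxOTKO muscle (SD, n = 6) and 66.2 ± 7.92 CPM in FoxOTlox muscle (n = 4) and a difference of 2.10 ± 0.40, adjusted p = 0.141. Ptpn3 and Nmrk2 had fold changes of 0.10 and -0.04 without STZ, and their differences were 1.22 ± 0.27, adjusted p = 0.48 and 1.49 ± 0.38, adjusted p = 0.781. Among lower genes, Avil and Zcchc24 had more negative fold changes under STZ than without it, at differences of -1.67 ± 0.40, adjusted p = 0.532 and -1.02 ± 0.26, adjusted p = 0.749. A p above the threshold does not show that the effects were equal.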

How the data were processed

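RNA-seq gene counts were deposited for 21 mouse muscle libraries, and the authors' table holds raw counts per gene with no normalization, as its whole numbers show. Per the submitters' processing notes, STAR, featureCounts and GRCm38.p4 were used; their versions, the gene annotation and the strand setting were not given in the sources used here, and without strand the reads of overlapping or antisense genes cannot be told apart. Counts for reads that match several genes equally depend on the authors' settings, so close paralogs are uncertain. Of 46071 gene IDs, 45143 matched a symbol in a table of gene names, and the rest held 0.0533% of the counts. Coordinates are from the GENCODE annotation of GRCm38. Groups were taken from genotype and drug labels, and the table has 0 columns of other samples.

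Genes were filtered with filterByExpr, libraries were scaled by TMM (factors 0.862 to 1.35), and 4 group means over all 21 libraries were fitted with edgeR 4.0.16 (R 4.3.3, limma 3.58.1) by robust quasi-likelihood. Tests were two-sided with Benjamini-Hochberg adjustment over 12658 genes and a threshold of 0.05. The biological coefficient of variation was 0.325. The fit was tested on simulated data with known changes. Library totals and shares were compared with exact permutation tests. The precision of each count is limited by its depth, and CPM values of low genes rest on few reads.

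Genes named in the text are the FoxO genes, a fixed set of FoxO-linked genes, the 15 higher and 15 lower genes with the smallest p and those with the largest fold change or difference, without predicted models, and called members of the gene lists; a few results are not reported here. The comparison, the lists and their members were chosen with earlier results of these data known, so a list's direction is no independent evidence. Of 25 library pairs within groups, each differed by more than sampling noise, with a chi-square of at least 13.4 for each degree of freedom. Nothing in the labels says whether libraries came from separate animals, so p values measure the spread between these libraries. DESeq2 1.42.0, other scalings and filters, the run as a block, and fits without single libraries were the alternatives.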

Additional observations from a re-analysis of the deposited data

Results flagged for a closer look

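The largest and smallest library of each STZ group were compared with their neighbours for each gene named in the text and for library measures. This made 264 groups in all, of which chance would single out about 1 in 20 if all values were independent. In libraries 4, 7, 8 and 17, 13 values stood apart, most of them in libraries 8 and 17. Values of 1 library are not independent, so this number cannot be set against that share. STZFoxOTKO library 8 had the fewest counts of its group, 3586183 against 5300653 to 6234979 in the other knockouts. It was also the lowest for Atg9a (32.8 CPM, others 59.6 to 66.5), Castor2 (25.8, others 45.3 to 62.5), Galnt17 (14.0, others 27.5 to 36.7) and Ppard (10.3, others 18.8 to 24.8). STZFoxOTKO library 4 was the lowest for Cdkn1b at 51.0 CPM, with 77.9 to 80.6 CPM in the other knockouts.

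STZFoxOTlox library 17 was the lowest control for 6 of these genes. It had 372 CPM of Casq1 (others 1520.2 to 2240.1), 2.91 of Kcnq5 (others 11.3 to 12.2), 21.6 of Klhl33 (others 71.5 to 108), 1.64 of Fam19a5 (others 4.16 to 5.50), 0.545 of Mdga1 (others 5.86 to 13.0) and 0.727 of Plet1os (others 5.40 to 8.90). STZFoxOTlox library 7 had 0 CPM of Atp6v0d2, with 0.13 to 0.182 CPM in the other controls, which is a matter of single reads.

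Ddah1 was singled out by the test of the difference between the knockout effects with and without STZ: the log2 difference was 1.92 (adjusted p = 0.0179, edgeR's quasi-likelihood test). All 6 STZFoxOTKO libraries lay above all 5 STZFoxOTlox libraries, and all 6 FoxOTKO libraries above all 4 FoxOTlox libraries.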

How the results depend on the processing

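Of 118 genes named in the text or by the rule for named genes and past the threshold under STZ, 58 kept their calls in all 22 alternatives, 60 lost them in at least 1, and 0 changed sign. The 619 calls of the knockout under STZ (313 higher, 306 lower) numbered 380 to 676 with 1 STZ library left out (164 to 359 higher, 216 to 322 lower). They numbered 379 without STZFoxOTKO libraries 4 and 15 (175 higher), 312 when the 11 STZ libraries were fitted alone (138 higher and 174 lower, 300 shared with the 619), 1011 with DESeq2 (562 higher) and 440 with no filter on low counts (200 higher). Between 528 and 634 genes were called with RLE or upper quartile factors, with a stricter filter, without robust estimation, without libraries 17 and 18, and in the 8 libraries of the shared runs; the last shared 312 with the 619. Without STZ, the 65 calls (19 higher, 46 lower) numbered 32 to 105 with 1 library left out (8 to 53 higher, 24 to 52 lower) and 351 with DESeq2 (214 higher, 137 lower). The 1 call of the difference between the knockout effects became 0 to 2 with 1 library left out, 4 with DESeq2 and 2 with no filter. Counts of several lists also moved by over 1.5 times: regulators of oxidative metabolism and the proteasome had 0 without libraries 4 and 15, and adipocyte markers 0 with the run as a block and 4 lower without library 8. The cause of these shifts was not tested.

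The numbers in the library titles are unique over the groups, so no fit with the replicate number as a block can be made. The run of consecutive library codes was fitted as a block instead. That fit called 1068 genes under STZ (621 higher, 447 lower), 29 higher genes without STZ and 0 for the difference. The 4 shared runs hold 1 library of each STZ genotype, so the fit of these 8 libraries by run was paired. It called 530 genes, of which 312 were among the calls of the main fit. The main fit did not use the runs. Deviations from the group means correlated at 0.388 on average over the 4 pairs of STZFoxOTKO and STZFoxOTlox libraries of 1 run (0.208 to 0.534), and at -0.06 over 26 pairs of different runs. The difference in total counts, STZFoxOTKO minus STZFoxOTlox, was -408012 and ran from -1038980 to 35794 with 1 library left out. That in the share of the 10 most abundant genes was -0.867 percentage points (-3.11 to 0.268, and 0.228 without library 7), and that in genes detected 324 (-52.8 to 657). With GTAAATA counted beside GTAAACA, the letters stood in the promoters of 14.2% of the lower, 4.70% of the higher, 4.85% of all tested and 7.35% of all genes of the table. At 3377613 to 7676700 counts a library, genes under a few CPM rest on few reads.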

Other observations

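The gene models here were chosen after their values were seen. The predicted gene model Gm38098 was higher in the knockouts with and without STZ. It lies on chromosome 3 at 52425408 to 52425648 (GRCm38) on the forward strand, and the deleted Foxo1 ends at 52353221 on the same strand. It had 3.41 to 15.9 CPM in STZFoxOTKO libraries, against 0, 0, 0, 0.182 and 0 CPM in STZFoxOTlox libraries (adjusted p = 2.41e-05, edgeR's quasi-likelihood test). Without STZ it had 1.02 to 10.7 CPM in FoxOTKO libraries, against 0.139, 0, 0 and 0 CPM in FoxOTlox libraries (adjusted p = 0.00485).

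The call on the gene model Gm28438 rested on 1 control: it had 650.3 CPM in STZFoxOTlox library 21, with 1.29 to 3.09 CPM in the other STZFoxOTlox libraries and 1.19 to 6.07 CPM in the STZFoxOTKO libraries.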
